A study of Mus musculus with 4 samples.

Results

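Genes that mark or build dendritic cell subsets, 10 in number, were followed in leukocytes of the mouse dura mater after delivery of VEGF-C, the growth factor of lymphatic vessels. They were chosen by gene name and are 10 of the 55401 genes measured: *Clec9a*, *Batf3*, *Irf8*, and *Wdfy4* of type 1 conventional dendritic cells (cDC1), *Cd209a* of type 2 (cDC2), *Zbtb46* and *Flt3* of both, *Siglech* and *Tcf4* of plasmacytoid dendritic cells (pDC), and *Fscn1* of mature dendritic cells. The cells came from wild-type C57BL/6J male mice. Each mouse had received 1 injection of an adeno-associated viral vector at 4 wk of age, into the CSF of the cisterna magna at the back of the brain. AAV-mVEGF-C (AAV-VEGF-C in the labels) carried mouse VEGF-C. AAV-CTRL (AAV-Control in the labels) carried a soluble portion of VEGFR-3 that lacks VEGF-C binding, so both groups carried a vector. The dural meninges of 10 to 12 mice were digested and pooled for each library, CD45+ cells were sorted, and total RNA was sequenced, with 2 libraries in each group. No mouse was measured alone. The question addressed here is whether transcripts of dendritic cell subsets differed between dural leukocytes of the 2 groups.

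Dendritic cells take up antigen in tissues, carry it along lymphatic vessels to lymph nodes, and present it to T cells. In the dura they lie near the venous sinuses and the meningeal lymphatic vessels. Conventional dendritic cells depend on the cytokine receptor encoded by *Flt3*. The cDC1 present antigen from dead cells to CD8 T cells, and the cDC2 serve mainly CD4 T cells. The pDC release type I interferon in response to viral nucleic acid. On maturation both conventional types take on a shared program of costimulation and migration. Few of these genes belong to dendritic cells alone: *Irf8*, *Wdfy4*, and *Tcf4* are also transcribed in B cells, *Irf8* in monocytes and macrophages, *Flt3* in hematopoietic progenitors, *Zbtb46* in endothelium, and *Siglech* in microglia.

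All 10 genes were detected in every library and passed the filter on low counts, with 166 reads (*Batf3*, AAV-CTRL 1) to 25911 reads (*Wdfy4*, AAV-CTRL 1) behind each value. The 4 libraries held 32520709 to 46409700 reads assigned to genes, and 20993 to 37535 genes had a read. AAV-CTRL 1 was the deepest library, yet the one with the fewest genes detected (20993, against 29230 or more in the others). It was the lowest of the 4 libraries for *Clec9a*, *Batf3*, *Zbtb46*, *Siglech*, and *Tcf4* in CPM, and the part of this difference in their values was not tested. *Ptprc*, which encodes the CD45 used for sorting, lay between 946 and 1151 CPM, or reads per 1000000 assigned. Lists of other cells separated the control libraries from each other. The summed level of 8 B cell genes was 307 and 699 CPM in the controls, AAV-CTRL 1 and 2, but 322 and 356 CPM in AAV-mVEGF-C 1 and 2. The summed level of 8 neutrophil genes was 26290, 11970, 15270, and 17200 CPM in the same order. Values in CPM are scaled by the trimmed mean of M-values and compare 1 gene between libraries. Values in TPM, or transcripts per 1000000, are also scaled by gene length and are used to compare genes. In a bulk measurement, fewer cells of a type and less RNA per cell cannot be told apart.

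Per gene length, the cDC1 gene *Wdfy4* stood highest, at 83.8 ± 8.12 TPM (SD, n = 4), and *Irf8* next, at 72.7 ± 15.9 TPM. The cDC2 gene *Cd209a* followed at 60.3 ± 3.18 TPM. The pDC genes came next, *Tcf4* at 26.4 ± 9.27 and *Siglech* at 21.7 ± 8.7 TPM. Levels of *Fscn1* (13.4 ± 1.87 TPM), *Flt3* (12.4 ± 0.64 TPM), and *Clec9a* (11.9 ± 3.42 TPM) were close together, and the transcription factor genes *Batf3* (7.21 ± 1.88 TPM) and *Zbtb46* (5.56 ± 1.22 TPM) stood lowest. Of neighbors in this order, only *Cd209a* and *Tcf4* had ranges over the 4 libraries that did not overlap. The spread between libraries was smallest for *Flt3*, with a coefficient of variation of 5.17%, and *Cd209a*, with 5.27%. It was largest for the pDC genes, at 35.1% for *Tcf4* and 40.1% for *Siglech*.

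**Figure D1:**
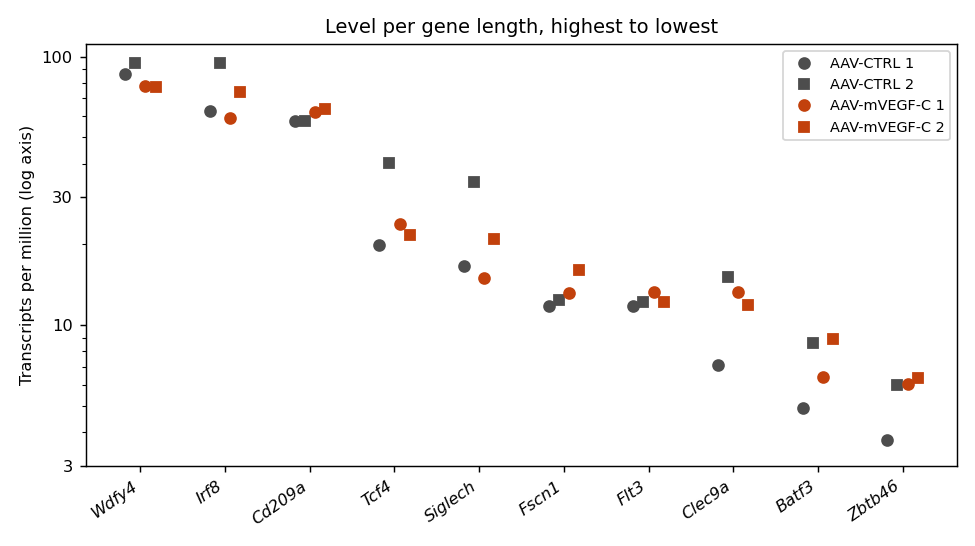
Levels of the 10 genes in TPM on a log axis, with genes ordered by their mean and each point 1 library (gray, AAV-CTRL; orange, AAV-mVEGF-C; circle, library 1; square, library 2). The square of AAV-CTRL 2 lies well above the other points for *Tcf4* and *Siglech*, while the 4 points of *Cd209a* and *Flt3* lie close together.

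No gene passed the threshold between AAV-mVEGF-C and AAV-CTRL in edgeR's quasi-likelihood test after adjustment by Benjamini-Hochberg: 0 of 10 dendritic cell genes and 0 of 19806 genes tested (0%) had an adjusted p under 0.05. At an unadjusted p under 0.05 the counts were 0 of the 10 and 523 of all genes. DESeq2 and limma-voom also called 0 of the 10, and called 72 and 0 of all genes. The smallest adjusted p among the 10 genes was 0.999, so the values below are descriptions and the intervals say how large a difference these libraries leave possible. The point estimate was higher in AAV-mVEGF-C for 7 of the 10 and lower for 3, with a median log2 fold change of 0.23, against 0.00344 over all genes tested. For 4 of the 10, *Zbtb46*, *Flt3*, *Cd209a*, and *Fscn1*, both AAV-mVEGF-C libraries lay above both AAV-CTRL libraries, as they did for 16.8% of all genes. For 0 of the 10 both lay below, as they did for 15.2% of all genes. In TPM the 4 genes were the same, and *Wdfy4* lay below in addition, but the background was uneven on that scale, with 8.92% of all genes above and 28.5% below. On log2(TPM + 1), where the median of all genes was −0.08, differences moved by over 1.5 times for 6 of the 10 genes: *Batf3* (0.19), *Irf8* (−0.22), *Wdfy4* (−0.21), *Flt3* (0.08), *Cd209a* (0.13), and *Tcf4* (−0.30).

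**Figure D2:**
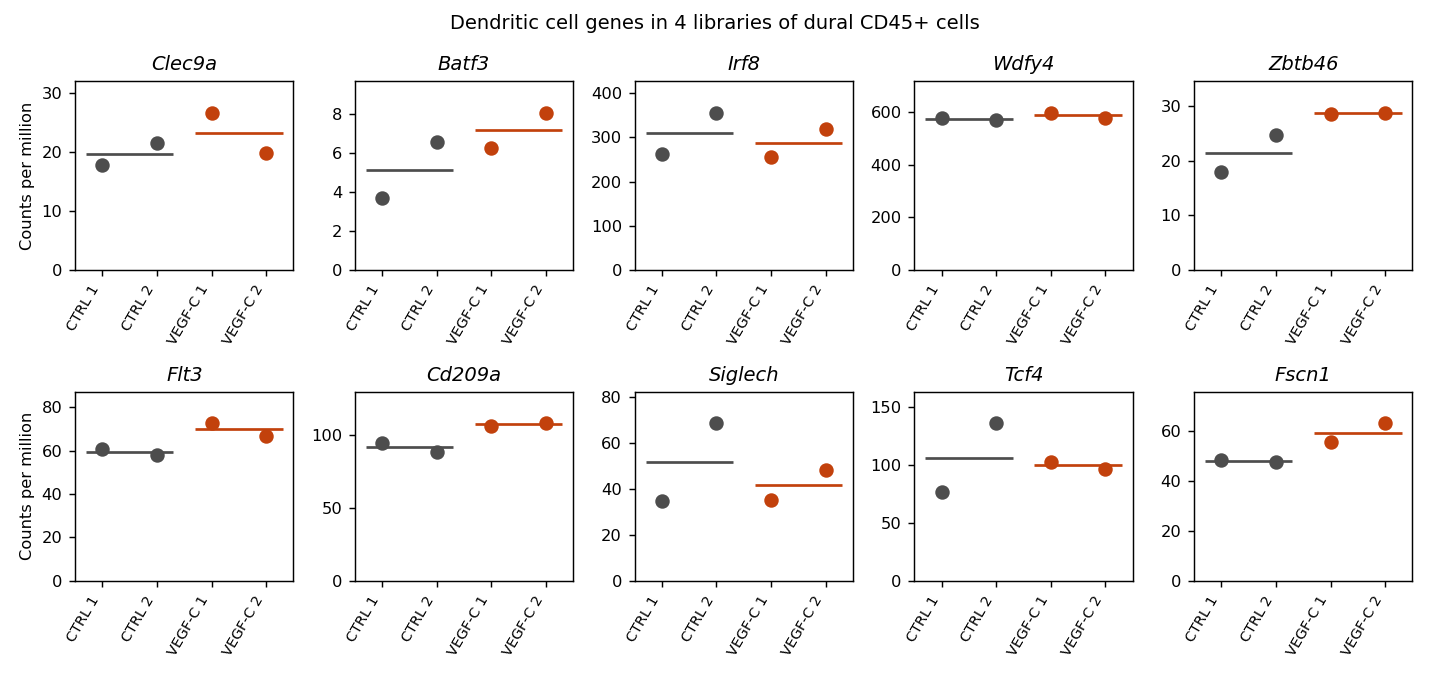
CPM of each gene on a linear axis from 0, with 1 point per library and a horizontal line at each group mean (gray, AAV-CTRL; orange, AAV-mVEGF-C). The orange points lie above both gray points for *Zbtb46*, *Flt3*, *Cd209a*, and *Fscn1*, and AAV-CTRL 2 is the highest point for *Irf8*, *Siglech*, and *Tcf4*.

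The 4 cDC1 genes all overlapped between the groups in CPM. *Clec9a* encodes a receptor of cDC1 for exposed actin of dead cells. Its level was 17.7 and 21.5 CPM in AAV-CTRL 1 and 2, and 26.6 and 19.8 CPM in AAV-mVEGF-C 1 and 2. The groups overlapped, since AAV-mVEGF-C 2 lay between the controls. The log2 fold change was 0.25 (SE 0.23), with a 95% interval of −0.31 to 0.81. It was 0.12 without AAV-CTRL 1, 0.39 without AAV-CTRL 2, 0.03 without AAV-mVEGF-C 1, and 0.44 without AAV-mVEGF-C 2. *Batf3* encodes the transcription factor that cDC1 need for their development, and was the least abundant of the 10 in reads. It measured 3.71 and 6.57 CPM in AAV-CTRL 1 and 2, and 6.27 and 8.08 CPM in AAV-mVEGF-C 1 and 2. AAV-CTRL 1 was low and AAV-mVEGF-C 2 high, and the libraries between them overlapped. Its log2 fold change of 0.48 (SE 0.39; 95% interval −0.46 to 1.43) was the largest of the 10 and the least precise. It was 0.13 without AAV-CTRL 1, 0.94 without AAV-CTRL 2, and 0.29 without AAV-mVEGF-C 2.

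*Irf8* encodes the transcription factor on which cDC1 identity depends and which pDC share. Its level was 262 and 356 CPM in AAV-CTRL 1 and 2, and 255 and 320 CPM in AAV-mVEGF-C 1 and 2. Each group held 1 low and 1 high library, and the groups overlapped. The log2 fold change was −0.11 (SE 0.22; 95% interval −0.63 to 0.42). It was −0.31 without AAV-CTRL 1, and turned to 0.13 without AAV-CTRL 2 and to 0.06 without AAV-mVEGF-C 1. *Wdfy4* encodes a protein that cDC1 require to present antigen taken up from other cells. It was the steadiest of the 10 in CPM, at 580 and 570 in AAV-CTRL against 599 and 579 in AAV-mVEGF-C, with a ratio of highest to lowest of 1.05. Its interval, from 0.79-fold to 1.33-fold, was among the narrowest. Its log2 fold change of 0.04 (SE 0.15) turned in direction on TPM, as given above.

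The 15 other cDC1 genes measured had a median log2 fold change of 0.15, with 10 higher and 5 lower, 0 with an adjusted p under 0.05 and 0 with an unadjusted p under 0.05. Both AAV-mVEGF-C libraries lay above both controls for 4 and below for 2, beside 16.8% and 15.2% of all genes. Of the 3 most abundant, *Cd24a*, a surface glycoprotein gene of cDC1 that neutrophils and B cells share, lay below, at 363 and 247 CPM in AAV-CTRL against 225 and 231 CPM in AAV-mVEGF-C. *Id2*, an inhibitor of E proteins, measured 159 and 106 against 135 and 125 CPM, and *Naaa*, a lipid amidase gene, 177 and 138 against 160 and 172 CPM, both overlapping. The chemokine receptor gene *Xcr1*, picked out after its values were seen because cDC1 are known by it, was at 10.0 and 10.4 against 12.8 and 13.7 CPM, with a log2 fold change of 0.37 (SE 0.23; 95% interval −0.17 to 0.92).

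For the cDC2 gene *Cd209a*, a C-type lectin gene related to DC-SIGN, the values were 94.5 and 88.1 CPM in AAV-CTRL 1 and 2, and 106 and 108 CPM in AAV-mVEGF-C 1 and 2. Both AAV-mVEGF-C libraries lay above both controls. The log2 fold change was 0.23 (SE 0.15), and its 95% interval ran from 0.915-fold to 1.5-fold. The 16 other genes listed for cDC2, which include genes of dendritic cells of monocyte origin, divided evenly, 8 higher and 8 lower. Their median log2 fold change was −0.04, with 0 called. Above both controls in AAV-mVEGF-C lay 3 of them and below 2, beside 16.8% and 15.2% of all genes. *Mgl2*, another lectin gene of cDC2, went from 207 and 195 CPM in AAV-CTRL to 169 and 188 CPM in AAV-mVEGF-C, below both controls. Its log2 fold change of −0.17 (SE 0.15) was on the opposite side of 0 from *Cd209a*, and neither passed the test. *Sirpa*, which encodes an inhibitory receptor for CD47, was at 345 and 337 against 324 and 371 CPM. *Notch2*, the receptor gene on which some cDC2 depend, was at 618 and 758 against 824 and 809 CPM.

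Both genes of conventional dendritic cells in general lay higher in AAV-mVEGF-C. *Zbtb46*, a transcription factor gene that sets conventional dendritic cells apart from other myeloid cells, stood at 18.0 and 24.8 CPM in AAV-CTRL 1 and 2, but at 28.6 and 28.8 CPM in AAV-mVEGF-C 1 and 2. The groups did not overlap, and the gap from AAV-CTRL 2 to the AAV-mVEGF-C libraries was smaller than the gap between the controls. The log2 fold change was 0.43 (SE 0.22; 95% interval −0.10 to 0.96). *Zbtb46* was the only one of the 10 called under any alternative tried. Without AAV-CTRL 2 its log2 fold change was 0.67, with an adjusted p of 0.048 in edgeR's quasi-likelihood test, but 9.08% of all genes were called in that comparison, which takes the lone control to vary as the AAV-mVEGF-C libraries do. Without AAV-CTRL 1 the value was 0.21. Endothelium also transcribes *Zbtb46*, and the summed level of 8 endothelial genes was 68.6 and 79.6 CPM in AAV-CTRL against 59.4 and 59.5 CPM in AAV-mVEGF-C, most of it from *Pecam1*, the CD31 gene that leukocytes share. Of the 8, 4 lay below both controls in AAV-mVEGF-C and 1 above, beside 15.2% and 16.8% of all genes, and 3 overlapped. The part of endothelium in the values of *Zbtb46* was not tested.

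*Flt3* encodes the receptor for FLT3 ligand, the cytokine that drives dendritic cell development. It stood at 60.9 and 58.1 CPM in AAV-CTRL 1 and 2, but at 72.7 and 66.9 CPM in AAV-mVEGF-C 1 and 2. The groups did not overlap, and the log2 fold change was 0.23 (SE 0.15), with an interval from 0.908-fold to 1.52-fold. In TPM the nearest libraries of the groups were almost equal, at 12.18 in AAV-CTRL 2 and 12.23 in AAV-mVEGF-C 2. Hematopoietic progenitors carry the same receptor, and the summed level of 8 progenitor genes was 97.3 and 139 CPM against 99.6 and 117 CPM, overlapping between groups. The part of progenitors in the values of *Flt3* was not tested.

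Among 14 other genes shared by conventional dendritic cells, 12 were higher and 2 lower, with a median log2 fold change of 0.08 and 0 called. Both AAV-mVEGF-C libraries lay above both controls for 5 and below for 0, beside the same 16.8% and 15.2% of all genes. *Gpr132*, a receptor gene for lysophospholipids and related lipids, was the 1 gene of this list with an unadjusted p under 0.05. It measured 110 and 152 CPM in AAV-CTRL against 178 and 198 CPM in AAV-mVEGF-C, a log2 fold change of 0.52 (SE 0.20; adjusted p = 0.999 in edgeR's quasi-likelihood test). The 3 most abundant genes of the list overlapped between groups: *Cst3*, the cystatin C gene, at 494 and 542 against 498 and 588 CPM, *Plbd1*, a phospholipase gene, at 420 and 304 against 353 and 391 CPM, and *Spi1*, the gene of the myeloid factor PU.1, at 202 and 151 against 169 and 185 CPM.

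The 14 genes of growth factors, chemokines, and receptors listed as acting on dendritic cells had a median log2 fold change of 0.09, with 8 higher, 6 lower, and 0 called. Their most abundant members were *Csf1r*, the receptor gene for macrophage growth factors, at 558 and 754 CPM in AAV-CTRL against 481 and 647 CPM in AAV-mVEGF-C, and *Ccr2*, the chemokine receptor gene of monocytes, at 360 and 336 against 322 and 336 CPM. *Csf3r*, the receptor gene for the neutrophil growth factor G-CSF, was at 209 and 162 against 244 and 281 CPM. It was the 1 gene of these with an unadjusted p under 0.05, at a log2 fold change of 0.50 (SE 0.19; adjusted p = 0.999 in edgeR's quasi-likelihood test).

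**Figure D3:**
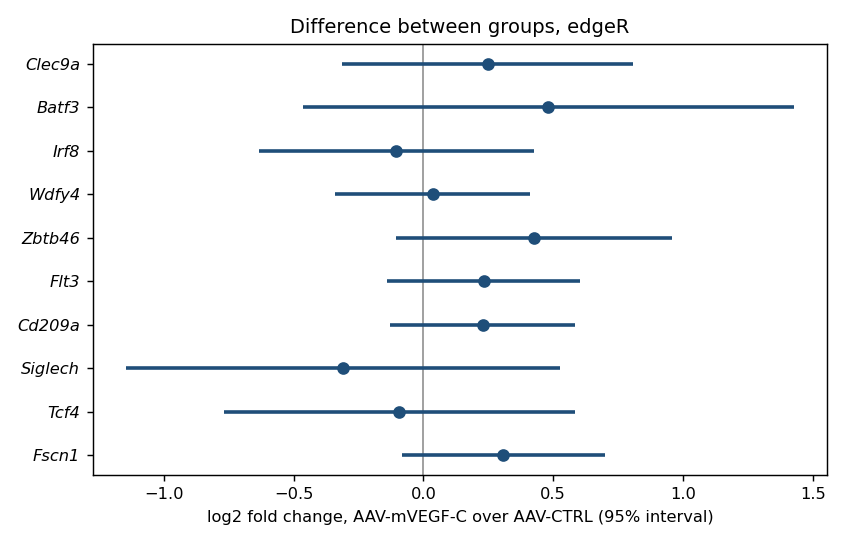
Log2 fold change of AAV-mVEGF-C over AAV-CTRL for each gene, with its 95% interval from edgeR as a horizontal line. All 10 intervals cross 0, the longest being those of *Batf3* and *Siglech*, and the shortest those of *Cd209a*, *Flt3*, and *Wdfy4*.

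The pDC genes differed more between the control libraries than between the groups. *Siglech* encodes a sialic acid–binding receptor that is the usual surface mark of mouse pDC. It measured 34.8 and 68.4 CPM in AAV-CTRL 1 and 2, and 35.1 and 48.2 CPM in AAV-mVEGF-C 1 and 2. AAV-CTRL 2 was highest, at 1.97 times AAV-CTRL 1, and both AAV-mVEGF-C libraries lay between them. On the log2 scale the difference was −0.31 (SE 0.34; 95% interval −1.14 to 0.53), which was −0.72 without AAV-CTRL 1 and turned to 0.26 without AAV-CTRL 2. *Tcf4* encodes E2-2, the E protein that directs pDC development. Its values of 76.5 and 136 CPM in AAV-CTRL 1 and 2, and 103 and 96.7 CPM in AAV-mVEGF-C 1 and 2, had the same form, with AAV-CTRL 2 at 1.78 times AAV-CTRL 1. The log2 fold change was −0.09 (SE 0.28; 95% interval −0.77 to 0.58). It was −0.45 without AAV-CTRL 1 and turned to 0.38 without AAV-CTRL 2.

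E proteins such as E2-2 bind E-boxes, and the promoter of *Siglech* is shown here, as that of the pDC surface marker, with its E-boxes. The stretch is the 250 bases before the RefSeq start site on GRCm38.p6, chr7:55767934-55768183, plus strand, and capitals mark each CANNTG.

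Siglech promoter: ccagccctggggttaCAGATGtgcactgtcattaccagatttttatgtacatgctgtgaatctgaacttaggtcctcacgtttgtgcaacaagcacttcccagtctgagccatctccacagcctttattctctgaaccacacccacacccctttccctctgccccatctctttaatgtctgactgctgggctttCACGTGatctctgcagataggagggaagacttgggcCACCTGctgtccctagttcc

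The E-boxes lay 235, 56, and 20 bases before the start. CANNTG reads the same on both strands and is frequent: 8 of the 9 genes with a promoter in the table held at least 1 in these 250 bases, as did 66.2% of 32851 mouse promoters. Of motifs bound by the other transcription factors among the 10 genes, the AP-1 motif TGANTCA, searched on both strands and bound by BATF3 with JUN proteins, occurred in 1 of the 9, *Zbtb46*, 61 bases before a start site that lies inside the gene as GENCODE M21 draws it. It occurred in 6.75% of all promoters. The interferon response element (GAAA and a further GAAA 2 bases on) and the ETS-IRF element (GGAA and GAAA 2 bases on), both bound by IRF8, occurred in 0 of the 9, against 2.98% and 2.3% of all promoters. These are matches of letters, and no binding was measured.

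In GENCODE M21 on GRCm38, *Siglech* lies at chr7:55768178-55778925 on the plus strand and *Zbtb46* at chr2:181387762-181459426 on the minus strand. *Flt3* (chr5:147330741-147400489, minus strand) and *Fscn1* (chr5:142960343-142973185, plus strand) share a chromosome, as do *Irf8* (chr8:120736358-120756694, plus strand) and *Cd209a* (chr8:3743397-3748984, minus strand). *Clec9a* lies at chr6:129408862-129424763 and *Batf3* at chr1:191097847-191108945, both on the plus strand, and *Wdfy4* at chr14:32959547-33185508 on the minus strand. All values are sums over a gene's transcripts, of which the annotation lists 2 for *Flt3* and 62 for *Tcf4*.

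Most of the other pDC genes shared with *Siglech* and *Tcf4* their highest library, though not always the order of the rest. AAV-CTRL 2 was the highest of the 4 libraries for 17 of 20 of them and for 3 of the 10 genes (*Siglech*, *Tcf4*, and *Irf8*), against 24.8% of all genes. The median pDC gene stood at 0.70, 1.29, 0.88, and 1.01 times its own mean over the 4 libraries in AAV-CTRL 1, AAV-CTRL 2, AAV-mVEGF-C 1, and AAV-mVEGF-C 2. AAV-CTRL 2 was highest for 2 of 15 other cDC1 genes, 2 of 16 cDC2 genes, 3 of 14 shared genes, and 1 of 22 mature genes. Between the groups, 6 of the 20 pDC genes were higher in AAV-mVEGF-C and 14 lower, with a median log2 fold change of −0.10 and 0 called. Above both controls in AAV-mVEGF-C lay 1 of the 20 and below 2, beside 16.8% and 15.2% of all genes. Of the most abundant pDC genes, *Pld4*, an exonuclease gene, was at 195 and 230 CPM in AAV-CTRL against 189 and 217 CPM in AAV-mVEGF-C. *Irf7*, the gene of the factor that switches on type I interferon, was at 73.5 and 105 against 69.1 and 108 CPM. *Clec12a*, a lectin receptor gene also used by other myeloid cells, was at 190 and 129 against 134 and 144 CPM.

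Genes of several other cell types had their highest level in the same library. AAV-CTRL 2 was highest for 8 of 8 B cell genes, whose sums are given above and none of which was at 0. *Ms4a1*, which encodes CD20, measured 52.8 and 108 CPM in AAV-CTRL against 47.0 and 43.8 CPM in AAV-mVEGF-C. AAV-CTRL 2 was also highest for 8 of 8 macrophage genes, with sums of 1140 and 1718 CPM in AAV-CTRL against 951 and 1452 CPM in AAV-mVEGF-C, where *Mrc1*, the mannose receptor gene, was at 429 and 639 against 371 and 502 CPM. The summed level of 8 microglial genes was 209 and 248 against 161 and 213 CPM, with AAV-CTRL 2 highest for 5 of the 8. Fibroblasts, which also transcribe *Tcf4*, had 7 of 8 genes highest in AAV-CTRL 2, with sums of 1442 and 1664 against 1135 and 1214 CPM. Of these 8 genes, 5 lay below both controls in both AAV-mVEGF-C libraries, beside 15.2% of all genes. An unadjusted p under 0.05 in edgeR's quasi-likelihood test was found for 4 of the 8 and for 523 of 19806 genes, with 0 called. AAV-CTRL 2 was also highest for 6 of 8 B cell progenitor genes, 6 of 8 endothelial genes, and 5 of 8 hematopoietic progenitor genes. It was highest for only 1 of 8 monocyte genes, 1 of 8 T and NK cell genes, and 1 of 8 plasma cell genes. For 6 of the 8 monocyte genes AAV-CTRL 1 was highest. Monocyte sums were 4077 and 3327 CPM in AAV-CTRL against 3524 and 3945 CPM in AAV-mVEGF-C. B cells share *Tcf4*, *Irf8*, and several genes of the pDC list, among them *Spib* and *Ly6d*, which were picked out after their values were seen. *Spib* measured 31.5 and 118 CPM in AAV-CTRL against 43.9 and 57.0 CPM in AAV-mVEGF-C, and *Ly6d* 14.3 and 46.5 against 23.6 and 23.9 CPM. *Ccr9*, a homing receptor gene picked out in the same way, was at 14.9 and 31.4 against 18.3 and 20.5 CPM. The part of these cell types in the values of *Siglech*, *Tcf4*, and *Irf8* was not tested.

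**Figure D4:**
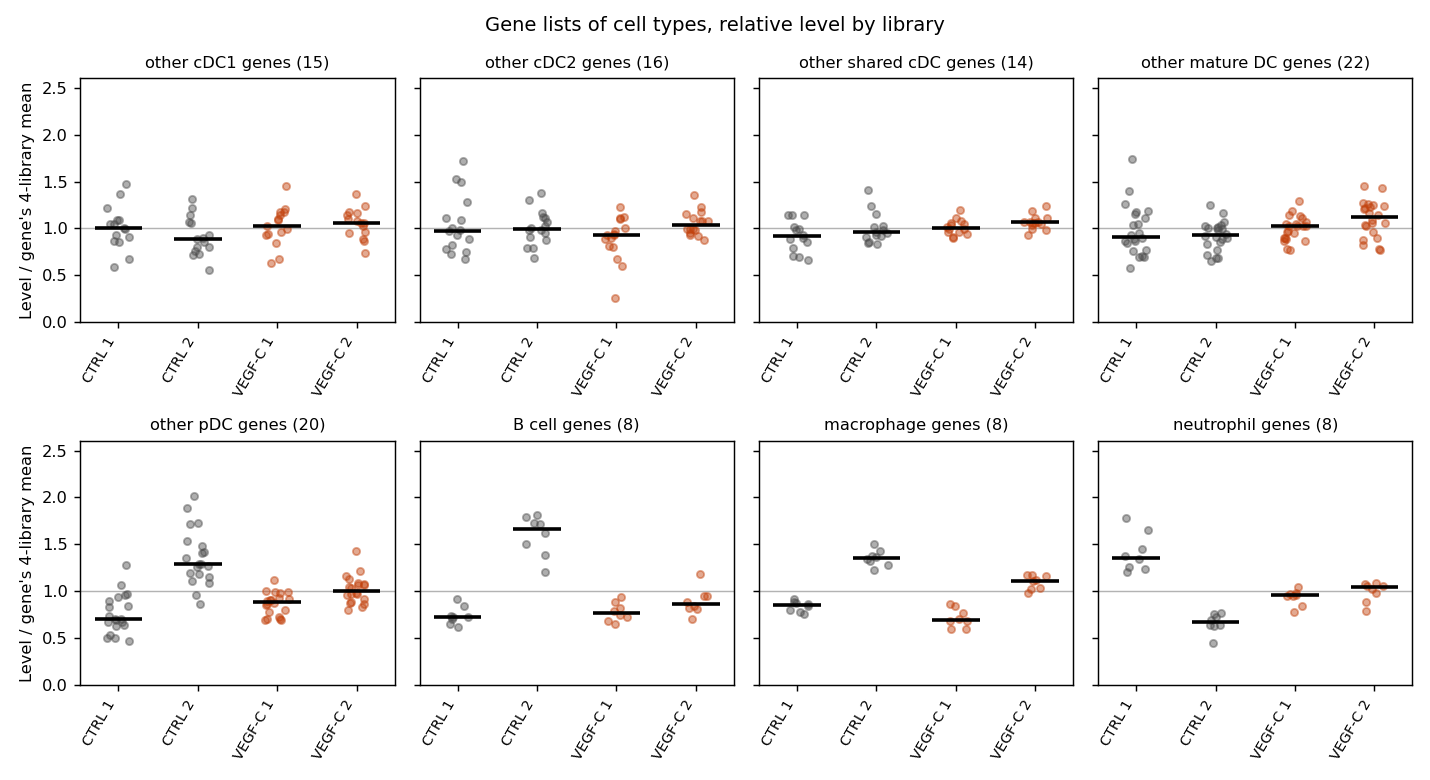
Level of each gene of 8 lists in each library, divided by that gene's mean over the 4 libraries, on a linear axis from 0, with 1 point per gene, a black line at the median, and the number of genes in parentheses (gray, AAV-CTRL; orange, AAV-mVEGF-C). AAV-CTRL 2 stands highest for pDC, B cell, and macrophage genes and lowest for neutrophil genes, while the medians of the mature list are 0.91 and 0.93 in AAV-CTRL against 1.02 and 1.12 in AAV-mVEGF-C.

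The mature dendritic cell gene *Fscn1* encodes fascin, an actin-bundling protein of dendrites and migrating cells. Its level was 48.4 and 47.4 CPM in AAV-CTRL 1 and 2, and 55.5 and 63.1 CPM in AAV-mVEGF-C 1 and 2. The controls were nearly equal and both AAV-mVEGF-C libraries lay above them. On the log2 scale the difference was 0.31 (SE 0.16), with a 95% interval of −0.08 to 0.70, or 0.945-fold to 1.62-fold. Leaving out each library in turn gave 0.21 to 0.40.

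Of 22 other genes of mature dendritic cells, 16 were higher in AAV-mVEGF-C and 6 lower, with a median log2 fold change of 0.19 and 0 called. Both AAV-mVEGF-C libraries lay above both controls for 9 of the 22 and below for 2, beside 16.8% and 15.2% of all genes. *Cd80*, a costimulatory ligand gene for CD28 and CTLA-4 that activated B cells and macrophages share, was the 1 gene with an unadjusted p under 0.05. It was at 14.7 and 13.3 CPM in AAV-CTRL against 24.9 and 24.3 CPM in AAV-mVEGF-C, a log2 fold change of 0.81 (SE 0.19; adjusted p = 0.999 in edgeR's quasi-likelihood test). *Birc3*, an inhibitor of apoptosis downstream of NF-κB, was at 210 and 198 against 237 and 242 CPM. *Cd83*, a maturation marker gene, was at 354 and 421 against 353 and 510 CPM, and *Tmem123* at 207 and 172 against 177 and 190 CPM. *Ccr7*, the receptor gene for migration to lymph nodes, picked out after its values were seen for that role, was at 47.6 and 78.1 against 64.7 and 78.3 CPM, overlapping between groups (log2 fold change 0.19, SE 0.26).

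Ratios within a library do not depend on scaling between libraries, and they were formed from the summed TPM of each subset's genes, the 10 genes included. The log2 ratio of mature to conventional genes was −2.36 and −2.19 in AAV-CTRL 1 and 2 against −2.07 and −2.06 in AAV-mVEGF-C 1 and 2. Both AAV-mVEGF-C values lay above both controls, by 0.21 on average. The summed TPM of the 22 other mature genes overlapped, at 434 and 517 in AAV-CTRL against 471 and 522 in AAV-mVEGF-C. For the other cDC1 genes it was 464 and 387 against 355 and 371. The other cDC2 genes summed to 488 and 502.5 against 406 and 459, the shared genes to 1102 and 1239 against 1027 and 1162. The largest conventional terms were *Cst3* (605 TPM on average), *Plbd1* (134.5), and *Cd24a* (131.8), the last shared with neutrophils and B cells. The log2 ratio of pDC to conventional genes was −2.62 and −1.89 in AAV-CTRL against −2.38 and −2.29 in AAV-mVEGF-C, so that the AAV-mVEGF-C values lay between the controls. The log2 ratio of cDC1 to cDC2 genes was 0.20 and 0.10 in AAV-CTRL against 0.13 and 0.05 in AAV-mVEGF-C, overlapping. Formed from the 10 genes alone, it was 1.48 and 1.88 against 1.34 and 1.43, so that both AAV-mVEGF-C values lay below both controls. In that form the cDC1 sum was mostly *Wdfy4* (83.8 TPM on average) and *Irf8* (72.7 TPM), which B cells share. *Clec9a* (11.9 TPM) and *Batf3* (7.21 TPM) added less, and the cDC2 side was *Cd209a* alone. The part of B cells in this ratio was not tested. With 2 pools per group no test was made of these ratios.

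The deposited reads and TPM of *Clec9a* gave different pictures of its level. In TPM it was at 7.11 and 15.1 in AAV-CTRL 1 and 2, and at 13.3 and 11.9 in AAV-mVEGF-C 1 and 2, so that AAV-CTRL 1 was lower than AAV-CTRL 2 by far more than in CPM. Reads divided by TPM give the effective length used for a gene in a library. For *Clec9a*, relative to the other genes of each library, it was 1.35, 0.84, 1.03, and 0.85, a ratio of longest to shortest of 1.60. The median ratio was 1.14 over 12870 genes with at least 100 reads on average, and 9.44% of these had a larger one. The other 9 genes had ratios from 1.01 (*Flt3*) to 1.23 (*Batf3*). The annotation lists 4 *Clec9a* transcripts of 446 to 3293 bases, and the transcripts behind each value were not analysed here.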

How the data were processed

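CD45+ cells of pooled dural meninges were sequenced as 4 libraries, 2 of AAV-CTRL and 2 of AAV-mVEGF-C, made with a stranded total RNA kit for picogram inputs. The authors deposited an estimated count of reads per gene, without normalization, for 55401 genes. Of these values 8.18% were not whole numbers, and all were rounded before testing. The authors also deposited the same genes in TPM, which sum to 1000000 in each library. The submitters' processing notes name FastQC, Trimmomatic, DRAGEN, Picard, and the build mm10. How the reads were assigned to genes, and whether by strand, is not given in the sources used here.

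The main test was edgeR 4.0.16 (glmQLFit and glmQLFTest, TMM scaling, filterByExpr) in R 4.3.3 over 19806 genes, with Benjamini-Hochberg adjustment over all of them, a threshold of 0.05, and no covariate. Intervals are at 95%. DESeq2 1.42.0, which the study's methods name, limma 3.58.1 (voom, and log2(TPM + 1) or log2(TPM + 0.1)), RLE size factors, other filters (none, or at least 10 reads in every library), a replicate block, and each library left out in turn were alternatives. A crossed block, unscaled CPM, and the counts of calls with a library left out were added after seeing the data. The test was tried on simulated data. Libraries were grouped by the treatment label. Same-numbered libraries share an experiment number only, and p-values measure the spread between pools.

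The 10 genes and the gene lists were chosen with earlier results of these data known. Beside the 10, the text names from each dendritic cell list the 3 genes with the highest mean TPM and every gene with an unadjusted p under 0.05, and from lists of other cells the first 2 genes where a value touches one of the 10. *Xcr1*, *Spib*, *Ly6d*, *Ccr9*, and *Ccr7* fall outside this rule. The count of genes highest in AAV-CTRL 2 was also chosen after the values were seen. GENCODE M21 (GRCm38), which holds all 10 identifiers in the same version, gave coordinates, and promoters are from RefSeq on GRCm38.p6, where 9 of the 10 genes have an entry. *Sept3* of the cDC1 list was not matched by name.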

Additional observations from a re-analysis of the deposited data

How the results depend on the processing

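Of 120 alternatives for the log2 fold changes of the 10 genes, 113 kept the direction and the side of the threshold. The direction turned in 6: for *Wdfy4* in TPM (−0.21 with a pseudocount of 1 and −0.22 with 0.1), for *Siglech* and *Tcf4* without AAV-CTRL 2, and for *Irf8* without AAV-CTRL 2 or without AAV-mVEGF-C 1. With each library left out in turn, *Batf3* ranged from 0.13 to 0.94, *Clec9a* from 0.03 to 0.44, *Irf8* from −0.31 to 0.13, *Siglech* from −0.72 to 0.26, *Tcf4* from −0.45 to 0.38, and *Zbtb46* from 0.21 to 0.67. Dendritic cell genes called numbered 0 in the main test and 0 to 1 with a library left out, the 1 being *Zbtb46* without AAV-CTRL 2. Of all genes, edgeR's main test called 0 (523 at an unadjusted p under 0.05), DESeq2 72, edgeR with no filter 268, and edgeR with a library left out 0 to 1798. The experiment number as a replicate block gave 11 genes and changed no call among the 10. The deviations of same-numbered libraries correlated at −0.13 across genes, and a crossed replicate block gave 54 genes, with 0 of the 10. Above both controls lay 4 of the 10 genes, or 5 to 8 with a library left out, where 27.5% to 44.6% of all genes did. Below both lay 0, or 1 in TPM (28.5% of all genes) and 0 to 3 with a library left out (26.2% to 37.6%). The cDC1 to cDC2 difference of −0.06 was −0.13 in CPM and −0.30 with the 10 genes alone, and the mature to conventional difference of 0.21 was 0.11 in CPM and 0.34 with the 10 genes alone. With a library left out, they ranged from −0.11 to −0.006 and from 0.13 (without AAV-CTRL 1) to 0.30, and the pDC to conventional difference, −0.08 in the main comparison, −0.15 in CPM, and −0.28 with the 10 genes alone, from −0.45 without AAV-CTRL 1 to 0.28 without AAV-CTRL 2. The cause of these changes was not tested. With 2 pools per group, the intervals give differences compatible with these values and do not mark a limit of detection.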
